A study of Oncorhynchus mykiss with 8 samples.

Results

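Wap65, the warm temperature acclimation-related protein of fish blood plasma, and hemopexin were measured by 3 of 43603 probes on an array hybridized with liver mRNA of small and large rainbow trout. The 3 probes are all those whose name, in the study's tables of genes or in the platform's annotation, contains warm temperature acclimation, Wap65 or hemopexin. By the paper, the array was built from Atlantic salmon sequences, so trout cDNA was hybridized across species. How well each probe matches a trout transcript was not tested. A_05_P251959 and A_05_P420737 carry the Wap65 name and A_05_P275779 is named hemopexin precursor. All 3 names come from the study's tables for white muscle of the same lots of fish, which list only probes that differed there, so genes of this kind that did not differ in muscle may be on the array without a name. By the paper, both Wap65 probes were higher in white muscle of large than of small Sept. fish. The platform gives none of the 3 a symbol. A_05_P251959 is marked in those tables as having another identity in the annotation of Agilent, the array's maker, and A_05_P275779 carries the maker's name alone.

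Small and large juveniles of the Lyndon strain were compared within a Sept. and a Dec. lot of spawning. A lot descends from 1 male and 5 females, with a different male in each lot, and all of its fish were kept together under natural photoperiod in well water until sampling, at over a year of age and before maturity. Small and large fish are the extremes of size among each female's offspring, so that size was not assigned by a treatment. The strain, the tissue and the water source are shared by all groups. Lot includes the season and its photoperiod, the parents, the tanks with their densities and the day of sampling, which cannot be told apart. By the paper, the pooled fish of both sizes were heavier in the Dec. than in the Sept. lot. Small and large thus do not stand for the same weights in both lots. On every array, cDNA from a pool of 5 small fish competes with cDNA from a pool of 5 large fish from 1 lot. There are 2 such pool pairs of different fish per lot. By the paper, 1 pair set the largest fish of each female against the next to smallest. The other set the next to largest against the smallest. Both pairs were run again with the labels Alexa Fluor 647 and Alexa Fluor 555 swapped (a dye flip), which gives 8 arrays and 4 pool pairs.

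Hemopexin is a plasma glycoprotein of the liver that binds free heme with high affinity and carries it back to liver cells, where the heme is broken down and its iron recovered. Wap65 is the hemopexin of teleost fish, and its name comes from goldfish and carp, in which the protein increases in plasma when the fish are acclimated to warm water. Many teleosts have a pair of Wap65 genes, 1 of them expressed mainly in liver. The RefSeq gene table of the rainbow trout (OmykA_1.1) likewise holds 2 hemopexin genes, hpxa and hpxb. None of the 3 probes could be assigned to hpxa or hpxb from the files, so the probes are named here by their IDs, and any 2 of them may report the same transcript. The map positions of the probes are not used here.

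Values are log2 ratios of small over large fish, so that a negative value means less signal in the small fish, and all 3 probes have a value on all 8 arrays. A ratio gives no level, and so it can show neither how abundant a transcript is nor whether the liver markers are present. In pooled tissue, fewer cells of a type and less RNA per cell also cannot be told apart. The 8 arrays hold values for 36754 to 41918 probes, with array medians of -0.0306 to 0.111. The direction was taken from the study's lists of liver genes, since all 726 entries have the sign of their list with the values as deposited, against 327 of 726 when the arrays with small fish in Alexa Fluor 555 were turned. Across probes, the arrays of a dye flip correlated at -0.131 and 0.0570 for the Sept. pool pairs and at -0.144 and 0.00363 for the Dec. pool pairs, so single arrays carry much that their dye flip does not repeat. The dye flips were therefore averaged and the pool pair was taken as the replicate.

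None of the 3 probes passed the thresholds in the Sept. lot, where their estimates lay between -0.24 and -0.10. Both Wap65 probes were lower in the small fish of the Dec. lot, whereas hemopexin was not distinguishable from 0 there. The Wap65 signal of small Dec. fish was 0.469 of that of large fish by A_05_P251959 and 0.598 of it by A_05_P420737, or 2.13-fold and 1.67-fold higher in large fish. The thresholds were those of the study's methods, an unadjusted p of 0.05 or less with a fold of at least 1.2. The test here was limma, so these calls are not the study's own. In the limma fit no p was below 0.05 after Benjamini-Hochberg adjustment over all probes, and the smallest adjusted p of any probe was 1.00 in the Sept. lot and 0.990 in the Dec. lot. None of the 3 probes is in the study's lists of named liver genes. The methods' t-test, with dye flips treated as separate, nevertheless also called both Wap65 probes lower in small Dec. fish. Its standard errors were 0.178 for A_05_P251959 and 0.229 for A_05_P420737, and it called 2.08% of all probes in that lot. Why the study does not list the Wap65 probes was not tested.

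For A_05_P251959, the Sept. arrays gave log2 ratios of small over large fish of 0.39 and -0.83 in pool pair 1 and of -0.11 and -0.42 in pool pair 2, with small fish in Alexa Fluor 647 on the first of each. The arrays of pool pair 1 point in opposite directions, and their gap of 1.22 was larger than that of 91.5% of probes on this pair of arrays. Averaged over the dyes, the pool pairs were close together at -0.22 and -0.26. The estimate was -0.24 with a standard error of 0.153 and a 95% interval of -0.65 to 0.16, so that both no difference and a moderately lower level in small fish lie inside the interval.

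The Dec. arrays of the same probe gave -1.15 and -0.64 in pool pair 1 and -1.50 and -1.09 in pool pair 2. All 4 lie on the side of lower expression in small fish, and neither dye nor pool pair turns the sign. The averaged pool pairs were at -0.89 and -1.30, and their gap of 0.404 was larger than that of 65.4% of probes. The estimate was -1.09 with a standard error of 0.153 and a 95% interval of -1.50 to -0.69 (adjusted p = 0.990, limma). It ranked 116 of 34014 probes counted from the lowest ratio, and 11 among the 1414 probes with a name.

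**Figure D1:**
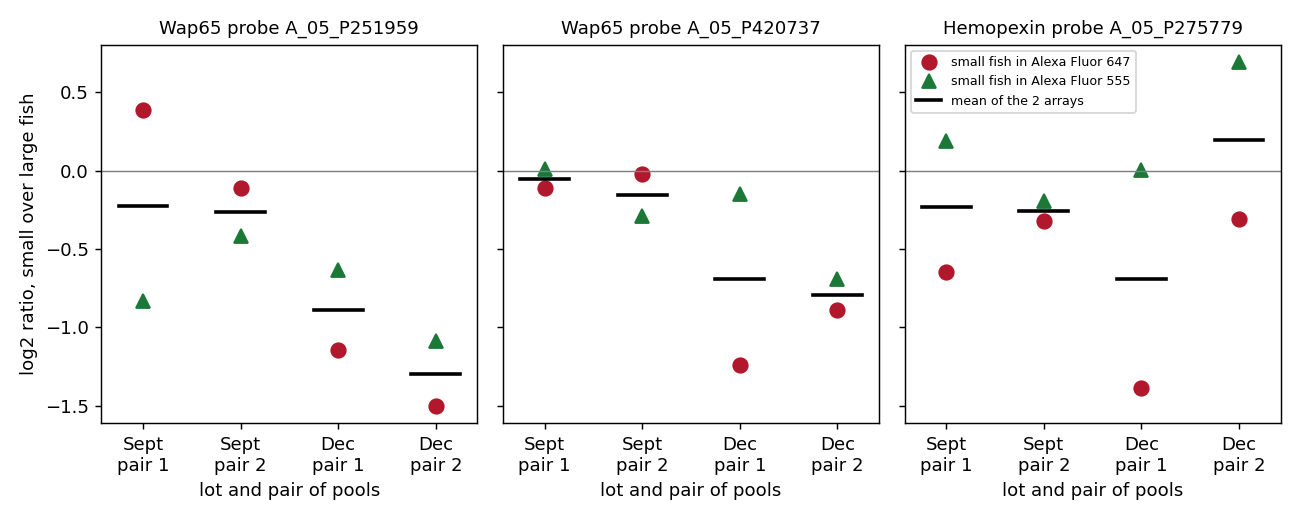
Log2 ratio of small over large fish on every array (vertical axis) for the 3 probes, 1 panel a probe, by lot and pool pair; circles are arrays with small fish in Alexa Fluor 647, triangles those with small fish in Alexa Fluor 555, and bars the mean of both. Both Wap65 probes lie below 0 on all 4 Dec. arrays, while the hemopexin probe lies on both sides of 0 in either lot, with the circle below the triangle in all 4 pool pairs.

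The Sept. arrays of A_05_P420737, in the same order of arrays, gave -0.11 and 0.01 in pool pair 1 and -0.02 and -0.29 in pool pair 2. All lie near 0, with the smallest spread of the 3 probes in that lot. The estimate was -0.10 with a standard error of 0.125 and a 95% interval of -0.43 to 0.23.

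Its Dec. arrays gave -1.24 and -0.15 in pool pair 1 and -0.89 and -0.69 in pool pair 2. The value of -0.15, with small fish in Alexa Fluor 555, is well above the other 3, and on that array 39.8% of probes were lower. The pool pairs nevertheless lay close together at -0.69 and -0.79, a gap of 0.0974 that was larger than that of only 19.4% of probes. The estimate was -0.74 with a standard error of 0.125 and a 95% interval of -1.07 to -0.41 (adjusted p = 0.990, limma). It ranked 407 of 34014 probes from the lowest and 26 among the 1414 named ones.

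The hemopexin probe A_05_P275779 gave -0.65 and 0.19 on the Sept. arrays of pool pair 1 and -0.32 and -0.19 on those of pool pair 2. The array with small fish in Alexa Fluor 647 was the lower one in both pairs, while the pair means of -0.23 and -0.26 lay close together. The estimate was -0.24 with a standard error of 0.238 and a 95% interval of -0.87 to 0.38.

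On the Dec. arrays this probe gave -1.38 and 0.00 in pool pair 1 and -0.31 and 0.70 in pool pair 2. The array with small fish in Alexa Fluor 647 was lower by more than 1 in each pair, gaps larger than those of 89.7% and 86.2% of probes. The pool pairs themselves disagreed in sign, at -0.69 and 0.19, with a gap larger than that of 91.0% of probes. The estimate of -0.25, nearly that of the Sept. lot, had a standard error of 0.238 and a 95% interval of -0.88 to 0.38 (adjusted p = 0.999, limma). This interval holds the Dec. estimate of A_05_P420737 but not that of A_05_P251959.

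Split by dye, the hemopexin probe averaged -0.85 in the Dec. lot with small fish in Alexa Fluor 647 and 0.35 with small fish in Alexa Fluor 555. Both Wap65 probes stayed below 0 with either dye, at -1.32 and -0.86 for A_05_P251959 and at -1.07 and -0.42 for A_05_P420737, in the same order. The lower value came with Alexa Fluor 647 for all 3 probes. With the Alexa Fluor 555 arrays alone, A_05_P420737 no longer passed the thresholds. The Sept. arrays gave 0.14 and -0.63 for A_05_P251959, the opposite order, and -0.06 and -0.14 for A_05_P420737. The estimates above weigh both dye orientations equally.

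Read against the whole array, 0 of 3 probes were called in the Sept. lot, where 2.72% of all probes were called in either direction and 1.21% as lower in small fish. None was below 0 on all 4 Sept. arrays (4.7% of all probes), and all 3 had both Sept. pool pairs below 0 (25.4% of all probes). The 2 of 3 probes called lower in small Dec. fish compare with 936 of 34014 probes, or 2.75%, called in that direction and 4.84% called in either. Both Wap65 probes, but not hemopexin, were below 0 on all 4 Dec. arrays (3.41% of all probes) and in both Dec. pool pairs (20.9% of all probes). In neither lot did the probes called reach 5% of those tested, and the Wap65 probes may report 1 transcript between them.

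**Figure D2:**
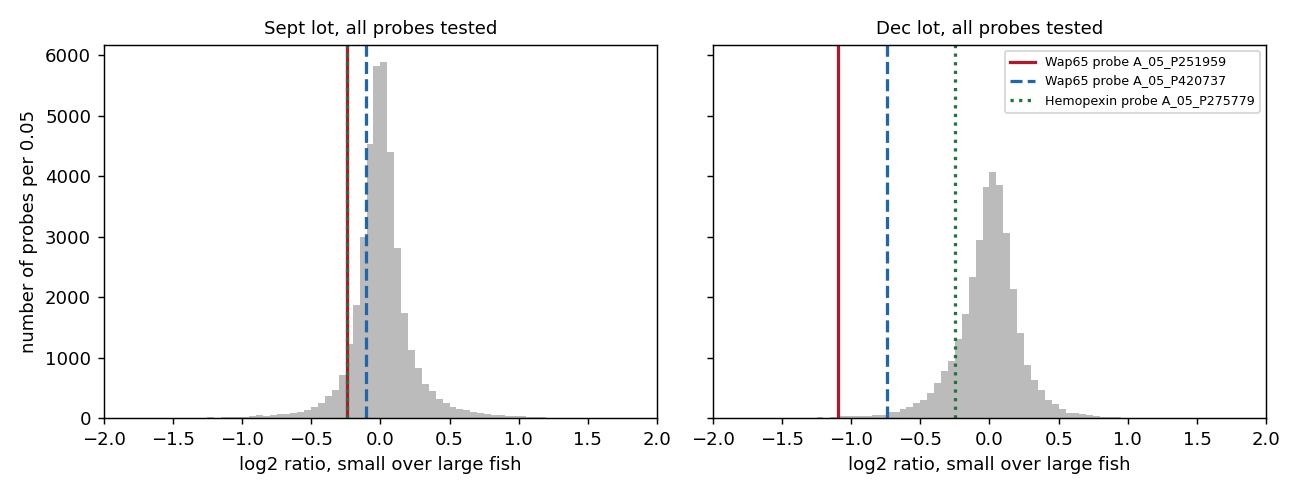
Number of probes (vertical axis) by limma estimate of the log2 ratio of small over large fish (horizontal axis, bins of 0.05) in each lot, with the 3 probes as lines. In the Sept. lot 7.56% of probes lie below A_05_P251959, 22.7% below A_05_P420737 and 7.52% below A_05_P275779. In the Dec. lot the lines of the Wap65 probes at -1.09 and -0.74 stand in the lower tail. The shares there are 0.338%, 1.19% and 12.5%, in the same order of probes.

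The lots were then set against each other, since a call in 1 lot alone does not show that the effect of size differs. The log2 ratio of A_05_P251959 was 0.85 higher in the Sept. than in the Dec. lot (standard error 0.216, 95% interval 0.28 to 1.42), and that of A_05_P420737 was 0.64 higher (standard error 0.176, 95% interval 0.18 to 1.11). Both passed an unadjusted p of 0.05 and neither passed after adjustment (adjusted p = 1.00 for both, limma). Among all probes with values on the 8 arrays, 2.75% passed in either direction and 1.53% with the Sept. lot above the Dec. lot. For both Wap65 probes single arrays of the lots overlap. The lowest Sept. array of A_05_P251959, at -0.83, lies below the highest Dec. array, at -0.64, and the lowest Sept. array of A_05_P420737, at -0.29, lies below the highest Dec. array, at -0.15. The hemopexin probe differed by 0.01 between the lots, with a 95% interval of -0.88 to 0.89 that includes differences as large as those of the Wap65 probes. Without Sept. pool pair 1, the differences of 0.83 for A_05_P251959 and 0.59 for A_05_P420737 no longer passed, and without Sept. pool pair 2 that of A_05_P420737, at 0.69, did not.

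**Figure D3:**
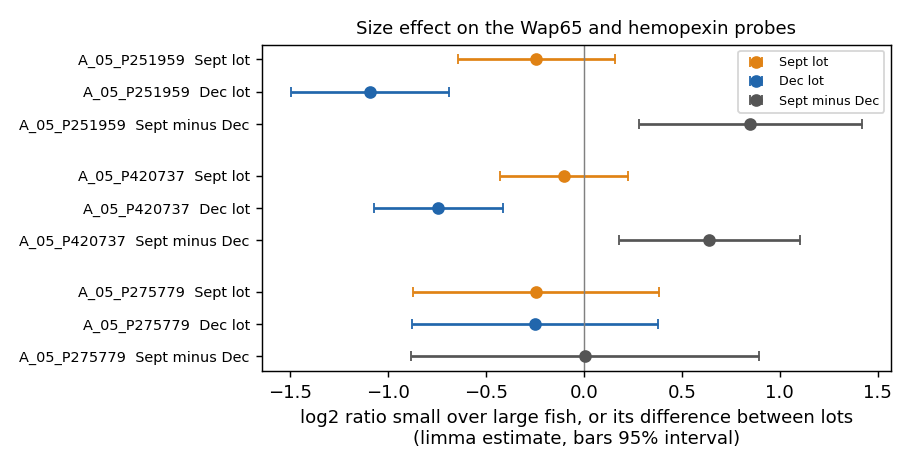
Limma estimates (points) with 95% intervals (bars) of the log2 ratio of small over large fish by lot, and of the Sept. minus Dec. difference, for each probe (rows). The Dec. intervals of A_05_P251959 and A_05_P420737 and the intervals of their differences between lots do not reach 0, and all 3 intervals of A_05_P275779 do.

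The Wap65 probes followed each other more closely than either followed the hemopexin probe. Over the 8 arrays A_05_P251959 and A_05_P420737 correlated at 0.72, which placed A_05_P420737 at rank 316 of 33290 by likeness to A_05_P251959, and A_05_P251959 at rank 763 of 33290 by likeness to A_05_P420737. The hemopexin probe correlated at -0.12 with A_05_P251959 and at 0.41 with A_05_P420737. These are descriptions over arrays that share pools, dyes and lots. They take in the difference between the lots, and correlations within a lot were not computed. Between the arrays of Sept. pool pair 1, A_05_P251959 went from 0.39 to -0.83, while A_05_P420737 went from -0.11 to 0.01. Within the same pool pair, A_05_P251959 was lower than A_05_P420737 in 4 of 4 pairs, with differences of -0.17 and -0.11 in Sept. and of -0.20 and -0.50 in Dec. pairs. The mean difference of -0.25 (SD 0.18, n = 4) had a two-sided exact sign-flip p of 0.125, the smallest that 4 pairs allow, and 0.375 adjusted over the 3 pairs of probes. The hemopexin probe differed by 0.42 ± 0.72 from A_05_P251959 (exact p = 0.375, adjusted 0.563) and by 0.18 ± 0.54 from A_05_P420737 (exact p = 0.875, adjusted 0.875; SD, n = 4 each), and Dec. pool pair 2 gave the largest values of both differences, at 1.49 and 0.98.

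Among the 1398 other named probes with values on all 8 arrays, the pattern most like A_05_P251959 was that of complement C1q tumor necrosis factor-related protein 5-like (r = 0.90), followed by the NEDD8-activating enzyme E1 catalytic subunit (0.88), the uncharacterized C14orf28 homolog (0.87), the zinc finger protein probe A_05_P403505 (0.85) and retinoblastoma binding protein 9 (0.84). For A_05_P420737 the closest were protein phosphatase 1 regulatory subunit 3D (0.95), which directs the phosphatase to glycogen, GPI mannosyltransferase 1 (0.93), non-lysosomal glucosylceramidase (0.89), DNA damage-binding protein 1 (0.87) and serine/threonine-protein kinase 17a (0.87). No probe is on both lists. A correlation takes no account of the level, and all 10 probes stand above 0 in the Sept. lot, at 0.31 to 0.84, where the Wap65 probes do not. Their Dec. estimates lie between -0.46 and 0.09, all above both Wap65 probes. All 10 names are in the study's lists of liver genes, which hold only probes that differed by size.

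Genes for heme handling, the process that hemopexin serves, were read next. The list of heme and iron genes found 8 probes by name, of which 8 were tested in the Sept. lot and 6 in the Dec. lot. Of these, 3 lay below 0 in each lot, with medians of 0.07 in Sept. and 0.04 in Dec. fish, and the medians of all probes lay within 0.01 of 0. The 3 probes for heme oxygenase, the enzyme that opens the heme ring, were at 0.12, 0.57 and 0.68 in Sept. fish and at 0.13, -0.04 and 0.21 in Dec. fish, in the same order, with standard errors of 0.146, 0.426 and 0.370 in both lots, and none was called. The heavy chain of ferritin, which stores iron, was at -0.10 in Sept. and -0.07 in Dec. fish (standard error 0.162). Ceruloplasmin, a copper-binding ferroxidase of plasma, was at 0.02 in Sept. and -0.35 in Dec. fish (standard error 0.154) and was not called. In the Sept. lot 1 of 8 was called, where 2.72% of all probes were, and in the Dec. lot 0 of 6, where 4.84% were. The called probe was A_05_P275069, named 5-aminolevulinate mitochondrial precursor, at -0.54 (standard error 0.138). Like the heme oxygenase probes A_05_P275014 and A_05_P413672, it is in the study's lists of liver genes. Those lists hold only probes that differed by size, so its call is not independent of its having a name. 5-aminolevulinate is an early intermediate of heme synthesis. This probe had too few values to be tested in the Dec. lot, and a further probe with 5-aminolevulinate in its name was at 0.15 in Sept. and 0.11 in Dec. fish.

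Other plasma proteins that the liver secretes had ratios on both sides of 0 in the Sept. lot and mostly below 0 in the Dec. lot. Nearly all have their names from the study's muscle tables, which list only probes that differed there, and several share a gene name. The albumin probe A_05_P249414 and the apolipoprotein L3-like probe A_05_P451048 are in the study's lists of liver genes, which hold only probes that differed by size. All 28 probes were tested in the Sept. lot, where 15 lay below 0, with a median of -0.02, and 1 was called lower, against 1.21% of all probes. It was inter-alpha-trypsin inhibitor heavy chain H3-like, a plasma protein that binds to matrix, at -0.57 (standard error 0.149). In the Dec. lot 24 of 27 lay below 0, against 48.1% of all probes, with a median of -0.29. Of the 27, 3 were called lower, against 2.75% of all probes. The 3 called there were complement component C9, the pore-forming part of complement, at -0.65 (standard error 0.223), the same inter-alpha-trypsin inhibitor probe at -0.56 (standard error 0.149), and 1 of 2 probes for apolipoprotein B-100, the protein of low-density lipoprotein, at -0.51 (standard error 0.177), the other being at 0.04. None of the 27 was as low as either Wap65 probe. Serum albumin, the main carrier protein of plasma, had probes at 0.29 and 0.05 in Sept. and at -0.51 and -0.25 in Dec. fish, none of them called. The difference of Sept. minus Dec. was called for 0 of 27 plasma probes, against 2.75% of all probes, but 6 of 27 lay below 0, against 51.7% of all probes, with a median of 0.27. The largest of these differences were 0.80 for the albumin probe A_05_P249414 (standard error 0.323), 0.61 for complement C4 (standard error 0.275) and 0.60 for a C1 inhibitor probe (standard error 0.359), similar in size to those of the Wap65 probes and with larger errors.

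The Dec. values of the plasma proteins followed the dye, with a median of -0.76 and 23 of 27 below 0 where small fish were in Alexa Fluor 647, and a median of 0.32 and 9 of 27 below 0 where they were in Alexa Fluor 555. The medians of all probes were 0.06 and -0.02 on the same arrays. The Sept. values of the list followed the dye in the same order, with medians of -0.29 (21 of 28 below 0) and 0.24 (9 of 28 below 0). Of the 27, 1, the albumin probe at -0.51, was below 0 on all 4 Dec. arrays, as both Wap65 probes were. This is 3.7% of the list, near the 3.41% of all probes. Each pool pair holds both dye orientations, and the averaged values of the list had medians of -0.44 in Dec. pool pair 1 and -0.12 in Dec. pool pair 2.

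**Figure D4:**
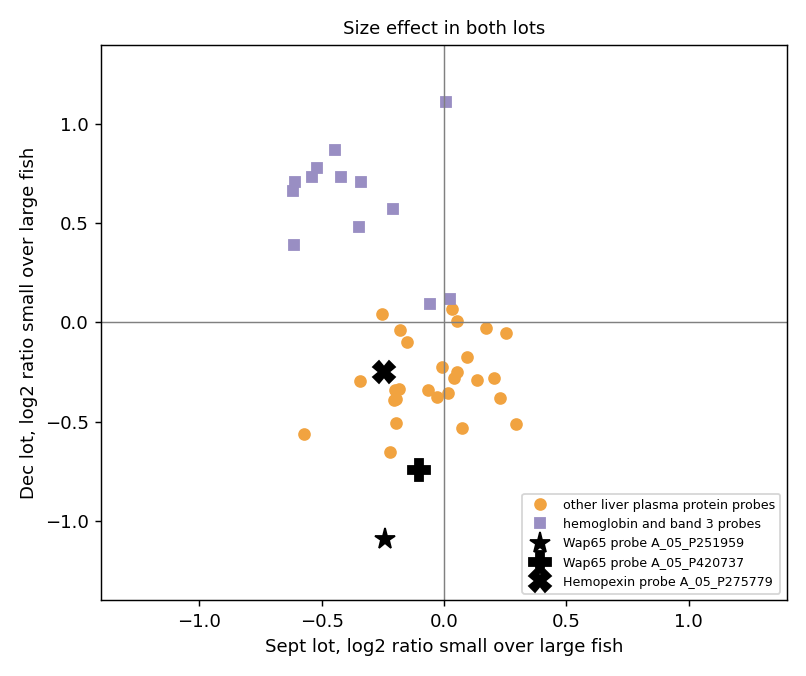
Limma estimates of the log2 ratio of small over large fish in the Sept. lot (horizontal axis) and the Dec. lot (vertical axis) for the Wap65 probes, the hemopexin probe, 27 other plasma protein probes and 13 probes for hemoglobin and band 3 (each point a probe). The Wap65 probes lie below all plasma protein probes on the Dec. axis, the hemopexin probe lies among them, and the blood cell probes lie above 0 on that axis.

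Probes for red blood cell genes, 13 for hemoglobin and band 3, the anion exchanger of the red cell membrane, lay on the other side of 0 from the Wap65 probes in the Dec. lot. Most of the 13 are in the study's lists of liver genes, which hold only probes that differed by size in either lot of these arrays. Their counts of calls thus depend in part on how the probes came to be named, unlike the shares of all probes. In small Sept. fish 6 of the 13 were called lower and 11 lay below 0, with a median of -0.42. Of all probes, 1.21% were called lower and 49.7% lay below 0 there. In small Dec. fish 10 were called higher and 0 lay below 0, with a median of 0.71. Of all probes, 4.84% were called in either direction and 48.1% lay below 0 there. Their part in the values of the Wap65 probes was not tested. The liver markers, albumin, apolipoprotein A-I and fibrinogen, have 8 probes, all of them also counted among the plasma protein probes. None was called in either lot, but 5 of 8 lay below 0 in Sept. fish and 8 of 8 in Dec. fish (49.7% and 48.1% of all probes), with medians of -0.02 and -0.31 in the same order. Their part in the values of the Wap65 probes was likewise not tested. The skeletal muscle markers, parvalbumin, myosin heavy chain and troponin, had 12 of 13 probes tested, with 1 called lower in small fish in each lot and 1 called higher in the Sept. lot, and medians of -0.04 in Sept. and -0.01 in Dec. fish. Of the other probes named from the muscle tables alone, as the 3 probes are, 6 of 894 were called in each direction in small Sept. fish, and 18 of 874 were called lower and 9 higher in small Dec. fish. For these counts and those of the muscle markers, the shares of all probes called lower were 1.21% in Sept. and 2.75% in Dec. fish. In either direction they were 2.72% and 4.84%.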

How the data were processed

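The authors read the scanned spots with GenePix, dropped those rejected by eye or with too low a channel signal ratio, and applied lowess in GeneSpring. The deposited log2 ratios were taken as small over large fish, with no further centering. Of 43663 lines, 60 control spots were left out. Single-channel signals were not used here, so no bound from background or saturation was set, and the number of arrays limits the precision.

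Dye flips were averaged (avearrays) before limma 3.58.1 (R 4.3.3; lmFit, eBayes) fitted a mean per lot with 1 shared spread to the 4 pool pairs. Tests used the probes with values on all 4 arrays of a lot (38679 in Sept., 34014 in Dec.) or, for the difference, on all 8 (33291). A lot's values entered the fit of a probe only where that lot was tested. This was 1 of 4 ways to choose the probes behind the shared spread, and it was settled on after the counts of all 4 had been seen, because it follows an earlier processing of these data. The other 3 are among the alternatives. Intervals are limma's, with 95% confidence.

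Names come from the study's tables and from the platform's annotation, which leaves 1494 probes named. Lists were filled by patterns in the names, and electron-transferring flavoprotein dehydrogenase and plasminogen activator entries, which matched by accident, were left out. The 3 probes, the lists and the rule for likeness (the 5 named probes with the highest Pearson r with each Wap65 probe) were chosen with earlier results of these data known. Every probe past the thresholds was named for the heme and iron and the plasma protein lists, with a few others; red blood cell, liver and muscle markers are given as counts. The alternatives, 20 planned and 3 chosen after seeing the data, include the methods' t-test over arrays, which treats the arrays of a dye flip as separate. The limma fit was checked on simulated data. Probe sequences were not used here.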

Additional observations from a re-analysis of the deposited data

Results flagged for a closer look

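The size effect differed between the lots, by a test of the difference itself at an unadjusted p of 0.05, for both Wap65 probes. As log2 of small over large fish, it was 0.85 higher in the Sept. than in the Dec. lot for A_05_P251959 (standard error 0.216) and 0.64 higher for A_05_P420737 (standard error 0.176). Neither passed after adjustment over 33291 probes (adjusted p = 1.00, limma), and 2.75% of all probes passed the same unadjusted threshold. Each probe passed in 17 of 22 alternatives. Most of these change only the error, the probes tested or the threshold, so the difference could not move in them. Setting no fold threshold, or one of 1.5, could not change the call. No array of the 3 probes stood apart from the other arrays of its lot by Dixon's criterion.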

How the results depend on the processing

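In the Dec. lot both Wap65 probes stayed below 0 in all 23 alternatives, with estimates of -1.32 to -0.23 for A_05_P251959 and -1.07 to -0.32 for A_05_P420737, and each passed in 21 of them. Most alternatives change only the error, the probes tested, the threshold or the Sept. arrays, so their Dec. estimates could not move from those of the main fit. No adjusted p fell below 0.05 in any, the lowest being 0.291 and 0.318. Of the 3 probes, 2 passed in the Dec. lot, where 4.84% of all probes did. By the t-test over the 2 pool pairs 1 did (A_05_P420737), against 1.47% of all probes. With the sign turned on the arrays with small fish in Alexa Fluor 555, 1 did (the hemopexin probe), against 20% of all probes. With those arrays alone 1 did (A_05_P251959), against 9.52%. All 3 did with the Alexa Fluor 647 arrays alone, the hemopexin probe at -0.85. On those arrays 12.1% of all probes passed, and 7.56% passed as lower in small fish. In the Sept. lot 0 passed, and 1 with the Alexa Fluor 555 arrays alone, where 5.23% of all probes did. For the difference between lots 2 passed, but 1 by the t-test over pool pairs, after quantile normalization and with the sign turned, and 0 with the Alexa Fluor 555 arrays alone and with eBayes with trend. Of all probes, 2.66% to 3.97% passed in these settings. Leaving out 1 Dec. pool pair moved the Dec. estimate to -1.30 or -0.89 for A_05_P251959 and to -0.79 or -0.69 for A_05_P420737. With any 1 pool pair left out, the difference between lots was 0.65 to 1.05 for A_05_P251959 and 0.59 to 0.69 for A_05_P420737. The cause was not tested.

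Several values turned round. A_05_P251959 in the Sept. lot was 0.38 with the sign turned and 0.14 with the Alexa Fluor 647 arrays alone, and A_05_P420737 was 0.037 with the sign turned. The hemopexin probe in the Dec. lot was 0.35 with the Alexa Fluor 555 arrays alone and 0.19 without Dec. pool pair 1, while without Dec. pool pair 2 it was -0.69. Its difference between lots was -0.048 after quantile normalization, -0.35 with the Alexa Fluor 555 arrays alone, and -0.44 to 0.45 with 1 pool pair left out. With a pool pair left out, the spread of the other lot stands in for that of the lone pair.

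The lots share no pools, but by the paper the pool pairs of both were made from the same ranks of size. The array labels give only a pair number, which was not matched to the ranks. The deviations of pairs with the same number correlated at 0.0319. With the replicate block on that number 0, 2 and 2 of the 3 probes passed in the Sept. lot, the Dec. lot and the difference, as without it, while over all probes 5.51%, 6.32% and 3.86% passed, against 2.72%, 4.84% and 2.75% without the block.

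The 3 ways of choosing the probes behind the shared spread that were added after seeing the data changed no call of the 3 probes. The standard error of A_05_P251959 was 0.148 to 0.157, and the probes called in the Dec. lot were 3.82% to 5.58% of those tested. The methods' t-test over arrays called 2.08% there, and turning the sign 20%.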
